A study of Mus musculus and Homo sapiens with 34 samples.

Results

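The response of the human lung adenocarcinoma cell line H1651 to the MEK inhibitor trametinib was measured by RNA sequencing in 4 of the 34 libraries of the series. The 4 libraries were chosen by their labels: control replicates 1 and 2, and replicates 1 and 2 of cells given 20 nM trametinib for 48 hours. H1651 cells were grown in Advanced DMEM F-12 with serum and HEPES, and the labels do not say what the control cells received. The series asks how HNF4A and NKX2-1, transcription factors that set gut-like and lung-like identity, and inhibitors of RAS signalling shape lung adenocarcinoma cells. Its other human libraries, used here for comparison, are from H358, another human lung adenocarcinoma line, grown in RPMI with serum, with and without the same dose and time of trametinib. A further 4 libraries are from H1651 cells that carry a lentiviral HNF4A construct, with 1 µg/mL doxycycline for 7 days or without it. The construct is named for that experiment, and the labels do not say whether the trametinib cells carried it. All groups compared here have 2 libraries. Nothing in the labels says whether replicates were separate cultures or what a replicate number marks. The p-values of treatment weigh a change against how far it differs between the 2 replicate numbers, with that spread shared across genes. That spread may be technical.

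In the RAS pathway, RAF kinases activate MEK1 and MEK2, which phosphorylate the kinases ERK1 and ERK2. Active ERK raises transcription of immediate early genes, of ETS factors of the PEA3 group, and of inhibitors that feed back on the pathway, such as Sprouty proteins and dual-specificity phosphatases. Trametinib binds MEK away from its ATP site and blocks ERK activation, so transcripts of these genes are commonly used to read pathway output. In the lung epithelium, NKX2-1 maintains alveolar genes, while HNF4A belongs to the programme of gut and liver.

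Each library held between 32807891 and 45284286 counts over 26245 listed genes. Of the 10 epithelial markers checked, KRT8 (3840 to 4640 CPM, read counts relative to the library's scaled total) and KRT18 (1910 to 2190 CPM) were abundant in all 4 libraries. EPCAM (1.25 to 2.5 CPM) and KRT19 (6.41 to 7.68 CPM) were low, and the intermediate filament gene VIM stood at 1433 to 1938 CPM. The summed level of 10 fibroblast markers was 443 to 560 CPM in control and 515 to 667 CPM with trametinib. Most of that sum came from COL3A1 (264 to 416 CPM) and LUM (90.6 to 161 CPM), while PDGFRA stood at 0.125 to 0.224 CPM. Summed leukocyte markers ran from 4.84 to 6.2 CPM, endothelial markers from 6.79 to 9.59 CPM and squamous markers from 1.96 to 2.68 CPM. Neuroendocrine markers summed to 332 to 381 CPM, mostly UCHL1 and DDC.

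The libraries stood apart first by replicate number. On log2 CPM, the first principal component held 60.5% of the variance and placed both replicate 1 libraries (-21.2 for control and -34.4 for trametinib) opposite both replicate 2 libraries (37.2 and 18.4). The second held 27.7% and placed both control libraries (-17.7 and -18.2) opposite both trametinib libraries (6.8 and 29.1). Between the groups, the difference of replicate 2 from replicate 1 correlated at 0.623 across genes, which share libraries and are not independent. Of 18277 genes tested, 5977 (32.7%) differed between replicate numbers at an adjusted p under 0.05, and the median absolute difference was 0.19 on the log2 scale against 0.11 for treatment. This split was known when the comparison was chosen, and the block was set with it, so these values describe the libraries and do not support the choice. Treatment was tested within replicate number, with the number as a block in edgeR's quasi-likelihood test and Benjamini-Hochberg adjustment over all genes tested. "Called" below means an adjusted p under 0.05 in that fit, and values per library are CPM after TMM scaling.

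With trametinib, 895 genes (4.9%) were called higher and 986 (5.39%) lower, 10.3% in all. Most of these changes were small: the median absolute log2 change of called genes was 0.37, and 74 genes rose and 95 fell at least 2-fold. Of the 1881 called genes, 1873 moved the same way within replicate 1 and within replicate 2, which a test blocked on replicate number selects for. For 704 of the called genes the control and trametinib libraries overlapped. Across all genes tested, the groups did not overlap for 28.5%. Protein-coding genes made up 1785 of the calls and lncRNAs 85. The fit has 1 residual degree of freedom, so its p-values lean on the spread shared across genes. Without the block edgeR called no gene (597 had an unadjusted p under 0.05) and DESeq2 called 47. DESeq2 with the block called 460 genes, and a joint fit with the H358 libraries, added after seeing the data, called 626. Called by all 3 of these fits with the block were 418 genes (2.29% of those tested), 176 higher and 242 lower. Below, "held" marks a gene called in all 3. At that share a short list of which none held does not stand apart from all genes. Counts of called list members below are to be read beside the 4.9% called higher and 5.39% called lower over all genes.

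**Figure D1:**
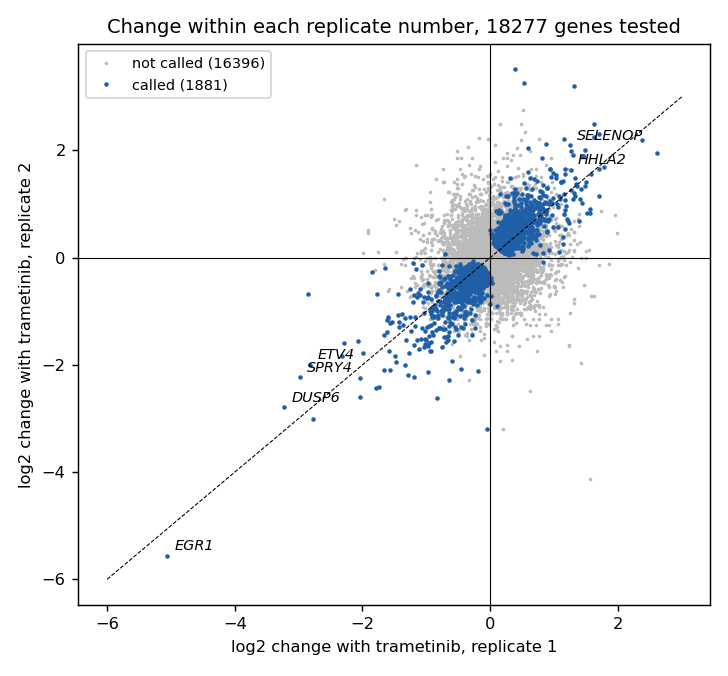
Log2 change with trametinib within replicate 1 (x axis) and within replicate 2 (y axis) for the 18277 genes tested, with the 1881 called genes in blue and equal change on the dashed line. EGR1, DUSP6, ETV4 and SPRY4 lie far to the lower left in both replicates, while most called genes lie near the origin.

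Genes that read ERK activity fell together. Of the 10 genes of the ERK output list, 9 were called lower and none higher, and all 9 held. The median log2 change of the list was -1.55, from -1.68 within replicate 1 and -1.45 within replicate 2, against a median of -0.003 over all genes tested. DUSP6, the phosphatase that removes the activating phosphates of ERK, stood at 49.8 and 51.8 CPM in control replicates 1 and 2 and at 5.27 and 7.46 CPM with trametinib. The trametinib libraries were far below both controls, and DUSP6 fell by 3.01 on the log2 scale (SE 0.0879, adjusted p = 1.78e-29, edgeR), which is 8.04-fold. DUSP4, a nuclear phosphatase of ERK, stood at 12.1 and 17.3 CPM in control and at 2.39 and 4.83 CPM with trametinib, a log2 change of -2.05 (SE 0.12).

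SPRY4, a Sprouty protein that restrains receptor signalling to RAS, fell from 5.28 and 11.8 CPM to 0.624 and 2.47 CPM, or 5.68-fold. Its relative SPRY2 changed less, from 18.3 and 22.9 CPM to 11.8 and 14.6 CPM (log2 change -0.64, SE 0.0837). The PEA3 factor ETV4 fell from 20.8 and 44.0 CPM to 2.9 and 11.0 CPM, and ETV5 from 36.5 and 58.7 CPM to 7.38 and 19.6 CPM. Both replicate 2 libraries were above the replicate 1 library of the same group for these 3 genes, SPRY4, ETV4 and ETV5, and in none of them did the groups overlap. PHLDA1, a pleckstrin-homology protein induced by growth factors, stood at 40.9 and 71.4 CPM in control and 19.4 and 28.6 CPM with trametinib.

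The smaller falls of the list were in EPHA2, an ephrin receptor, and CCND1, cyclin D1, which partners CDK4 and CDK6 in G1. EPHA2 went from 119 and 193 CPM to 73.3 and 106 CPM, and CCND1 from 168 and 180 CPM to 105 and 106 CPM, a 1.65-fold fall (adjusted p = 1.32e-14, edgeR). EPHA4 alone among the 10 was not called. It stood at 5.17 and 5.38 CPM in control and at 6.46 and 5.89 CPM with trametinib (log2 change 0.23, SE 0.125, adjusted p = 0.291).

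**Figure D2:**
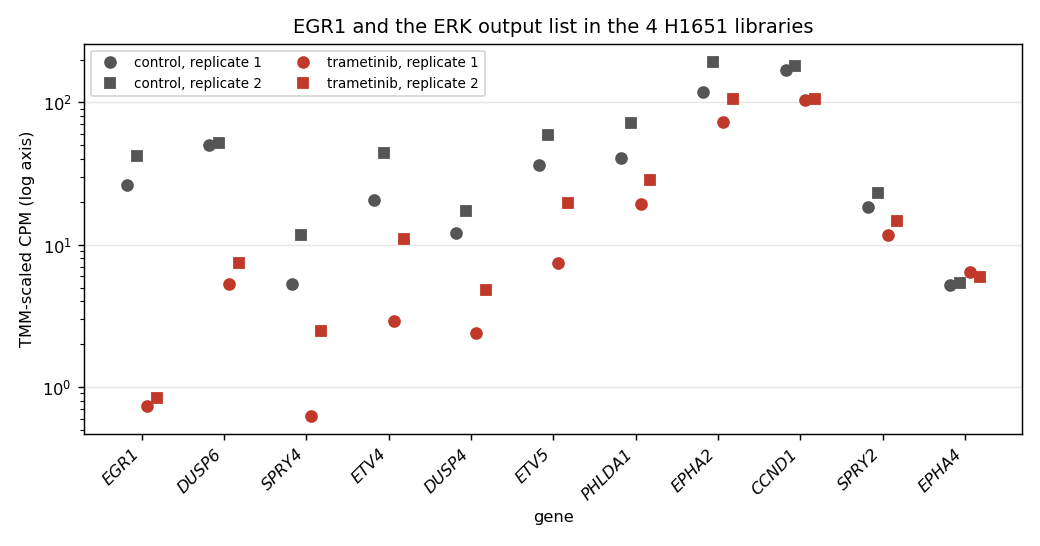
TMM-scaled CPM on a log axis of EGR1 and the 10 genes of the ERK output list, ordered by log2 change, with 1 point for each of the 4 libraries (grey control, red trametinib, circles replicate 1, squares replicate 2). For EGR1 and 9 of the 10 list genes both trametinib points lie below both control points, and EPHA4 is the exception.

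Among the 7 Sprouty and Spred inhibitors 6 were called lower and none higher. SPRY1 fell by 1.16 on the log2 scale, SPRED2 by 0.78 and SPRED1 by 0.70, and these 3 held, while the fall of SPRED3 (3.59 and 2.71 to 2.71 and 1.68 CPM, adjusted p = 0.0431, edgeR) did not. Of 10 phosphatases of MAP kinases, 4 were called lower and 1 higher, and all 5 held. DUSP5, a nuclear ERK phosphatase, fell by 0.69 and DUSP16, which prefers JNK, by 0.35. DUSP8, which acts on JNK and p38, rose from 9.29 and 8.4 CPM to 12.4 and 14.6 CPM (log2 change 0.60, SE 0.101). The third PEA3 factor, ETV1, went from 16.8 and 15.5 CPM to 9.97 and 14.1 CPM, a called change of -0.45 that did not hold.

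EGR1, a zinc-finger factor transcribed within minutes of ERK activation, showed the largest fall of all called genes with at least 10 CPM. It stood at 26.2 and 42.1 CPM in control and at 0.733 and 0.842 CPM with trametinib, 42.9-fold lower (log2 change -5.42, SE 0.131, adjusted p = 1.14e-32, edgeR). Of 19 immediate early genes tested, 10 were called lower and none higher, 6 of which held, with a median of -0.27. The AP-1 partner FOSL1 fell from 8.12 and 19.4 CPM to 2.01 and 5.61 CPM, and the small MAF factor MAFF from 24.5 and 29.8 CPM to 11.0 and 10.2 CPM. IER3, a survival gene induced early by growth factors, fell by 1.12 and JUNB, another AP-1 partner, by 0.50. FOS (-0.85) and MYC (-0.31) were called lower but did not hold. JUN stood at 39.3 and 43.7 CPM in control and 43.6 and 47.8 CPM with trametinib (adjusted p = 0.172), and ATF3 at 8.56 and 13.7 against 11.3 and 10.9 CPM (adjusted p = 0.927).

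Transcripts of the pathway's own proteins lay between -0.24 and 0.58 on the log2 scale. Of 24 core genes from RAS to ERK, 3 were called lower and 1 higher, against 10.3% of all genes called, and none of the 4 held. SHC1, an adaptor between receptors and RAS, changed by -0.24, NF1, which switches RAS off, by -0.23, and the ERK-activated kinase RPS6KA3 by -0.17. KSR2, a scaffold of the cascade, was called higher at 1.21 to 4.1 CPM. MAP2K1, which encodes the drug's target MEK1, stood at 154 and 163 CPM in control and 146 and 161 CPM with trametinib (log2 change -0.05, adjusted p = 0.699).

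Receptors moved both ways. Of 23 receptor tyrosine kinases tested, 3 were called higher and 6 lower, and 2 in each direction held. FGFR2, a receptor for fibroblast growth factors, rose from 55.1 and 42.0 CPM to 90.7 and 85.4 CPM, 1.82-fold (SE 0.0619 on the log2 scale, adjusted p = 6.05e-15, edgeR). FGFR1 of the same family fell from 23.2 and 35.7 CPM to 14.2 and 21.3 CPM. KIT, the stem cell factor receptor, stood at 9.37 and 2.05 CPM in control and 14.6 and 4.6 CPM with trametinib, so that its groups overlapped although it was higher with trametinib within each replicate number. ERBB2 (0.23) and AXL (-0.43) were called but did not hold. Among 10 ligands of the EGF family, EREG fell by 0.85 and held, from 40.2 and 58.3 CPM to 26.9 CPM in both trametinib libraries. HBEGF was called higher, from 16.6 and 22.6 CPM to 23.3 and 35.2 CPM, but was not called in the joint fit (log2 change 0.57).

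Cell cycle transcripts stayed close to control. Of 40 genes of DNA replication and S phase, 2 were called lower, ORC1 (-0.25) and UHRF1 (-0.18). Of 38 mitosis genes 2 were called lower, MKI67 (-0.25) and ECT2 (-0.21). None of these held, and both counts are near the 5.39% called lower over all genes. All 40 S phase genes lay between -0.25 and 0.17 on the log2 scale and all 38 mitosis genes between -0.25 and 0.14, with medians of -0.01 and -0.02. Among 12 D cyclins, their kinases and CDK inhibitors, CCND1 and the CDK inhibitor CDKN1A (-0.43) fell and held. CDK6 (-0.33), CDKN2C (0.23) and CDKN1C (0.52) were called and did not hold. Of 14 BCL2 family genes, BMF, which opposes BCL2, rose from 25.4 and 16.9 CPM to 39.8 and 29.7 CPM and held. MCL1, which protects from apoptosis, had a called change of -0.14 (adjusted p = 0.0491, edgeR) that did not hold. Of 30 genes of MYC and ribosome biogenesis, 6 were called lower, against 5.39% of all genes, and none held (median -0.13).

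Most genes of the cytokine and chemokine list were called lower. Of 17 tested, 12 were called lower and 2 higher, against 5.39% and 4.9% of all genes. Of the falls 5 held, and of the rises none. The falls include NFKBIA (-0.25) and TNFAIP3 (-0.44), which are inhibitors of NF-kB and not cytokines, and neither held. The median of the list was -0.79, with -0.47 within replicate 1 and -1.003 within replicate 2. CXCL8, a neutrophil attractant, fell from 3.41 and 7.19 CPM to 0.95 and 1.29 CPM, 4.62-fold. IL6 fell from 7.11 and 16.0 CPM to 3.34 and 5.56 CPM (adjusted p = 7.92e-12, edgeR). CXCL2, a related neutrophil attractant, fell by 0.97, and IL18, an inflammasome cytokine, fell by 0.46. CXCL5 shows how far the replicates stood apart: it was at 150 CPM in control replicate 1 and 34.6 CPM in control replicate 2, and at 104 and 17.2 CPM with trametinib. The groups overlapped for CXCL5, and within each replicate number it was lower with trametinib (log2 change -0.71, SE 0.069). CXCL1, CXCL2 and CXCL3 have similar sequences, and how reads were shared between them is not given in the sources used here.

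Genes of epithelial and mesenchymal state were called lower more often than higher. Of 27 tested, 11 were called lower and 3 higher, against 5.39% and 4.9% of all genes, and 4 and 2 of these held. PLAUR, the urokinase receptor, fell by 0.75 and ITGA5, a fibronectin receptor subunit, by 0.59. TGFB1 fell by 0.31 and CDH2, N-cadherin, by 0.29. TGFBI, an extracellular matrix protein, went from 400 and 628 CPM to 304 and 309 CPM, and was not called by DESeq2. CDH1, E-cadherin, stood at 66.6 and 34.8 CPM in control and 83.4 and 49.1 CPM with trametinib, and CLDN7, a tight junction protein, at 44.7 and 24.0 against 52.9 and 36.1 CPM. Both rose within each replicate number (log2 changes 0.40 and 0.40) and both held, and both had overlapping groups. Of the 10 epithelial markers, CDH1 and CLDN7 were the 2 called higher, and 3 were called lower. KRT7, a keratin, fell from 26.8 and 93.2 CPM to 19.0 and 57.3 CPM and held, while the tight junction gene CLDN4 (-0.27) and the mucin MUC1 (-0.23) did not hold. Of 15 targets of YAP and TEAD, 5 were called lower and 1 higher, with F3 (-0.42), ANKRD1 (-0.40), CCN2 (-0.38) and AMOTL2 (0.29) holding. Among 9 fibroblast markers tested, COL3A1 rose by 0.43 and POSTN fell by 1.16, and both held. The part of fibroblast markers in the changes of mesenchymal genes was not tested.

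Of 25 alveolar genes, 20 were listed and 13 passed the count filter. Of these 13, 7 were called higher and 1 lower, against 4.9% and 5.39% of all genes, with a median of 0.37. NKX2-1 stood at 54.9 and 25.8 CPM in control and 64.6 and 37.7 CPM with trametinib. It was lower in both replicate 2 libraries than in either replicate 1 library, and it rose within replicate 1 (0.24) and within replicate 2 (0.55), for a log2 change of 0.37 (SE 0.0668, adjusted p = 5.48e-05, edgeR). CLIC5, a chloride channel protein of type 1 cells, went from 5.83 and 2.3 CPM to 14.1 and 5.58 CPM, and ABCA3, the lipid pump of surfactant bodies, from 47.7 and 29.2 CPM to 64.9 and 42.8 CPM. CLIC5, ABCA3 and NKX2-1 held, and all 3 had overlapping groups. RTKN2 (0.48), LAMP3 (0.45), CAV1 (0.17) and HOPX (1.18, at 0.218 to 1.79 CPM) did not hold. The 1 alveolar gene called lower was ETV5, which is also on the ERK output list. SFTPB and NAPSA, which define secretory alveolar cells, were under 1 CPM in all 4 libraries and were not called.

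HNF4A did not pass the test. It stood at 58.3 and 38.2 CPM in control and at 58.9 and 33.3 CPM with trametinib, a log2 change of -0.08 (SE 0.0638, adjusted p = 0.526, edgeR), with 0.01 within replicate 1 and -0.19 within replicate 2. Between replicate numbers HNF4A differed by -0.72 (adjusted p = 1.34e-12, edgeR), more than its change with treatment. Of 45 gastrointestinal and hepatic genes, 36 were listed and 25 passed the filter, of which 5 were called higher and 2 lower, with a median of 0.01. The iron carrier TF rose from 44.1 and 9.8 CPM to 60.7 and 16.9 CPM and held. The stomach peptide TFF1 fell from 5.76 and 3.77 CPM to 1.96 and 1.6 CPM and held. ALB, TTR, VIL1 and APOH were called higher and the mucin MUC5AC lower, none of which held. Their levels were between 0.0842 and 20.8 CPM.

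Of 19 lung and foregut transcription factors, 4 were called higher and 5 lower, against 4.9% and 5.39% of all genes, with a median of -0.15. KLF5 fell from 134 and 133 CPM to 105 and 92.8 CPM and CEBPB from 82.4 and 108 CPM to 60.9 and 78.0 CPM, and both held. SOX9, a factor of distal lung progenitors, changed by -0.53 and did not hold. FOXA1 (0.19) and FOXA2 (0.61), pioneer factors of endoderm, were called higher and did not hold.

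**Figure D3:**
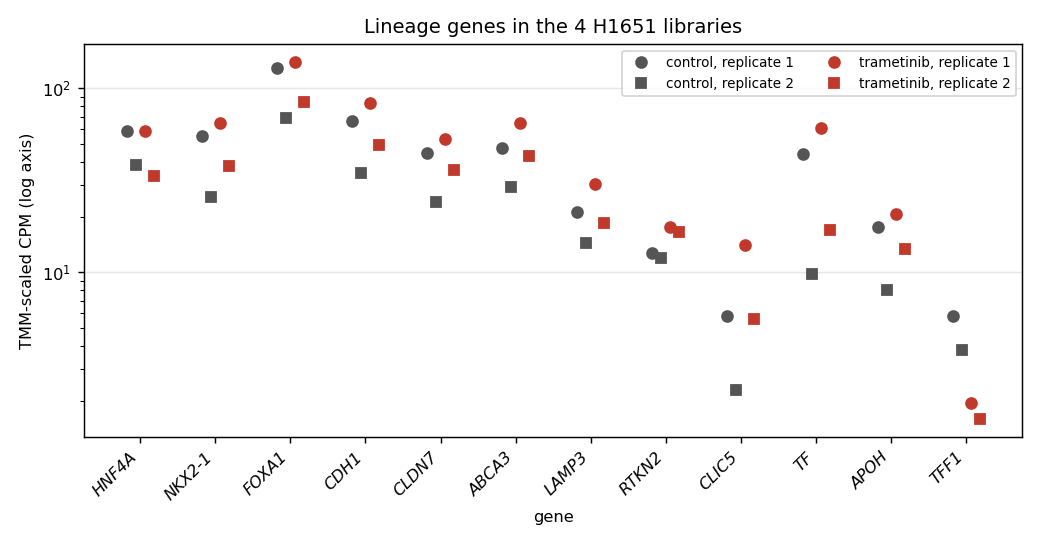
TMM-scaled CPM on a log axis of 12 lineage genes in the 4 libraries (grey control, red trametinib, circles replicate 1, squares replicate 2). For HNF4A, NKX2-1, FOXA1, CDH1 and TF the circles lie above the squares in both groups, and the replicate numbers differ more than the treatments do.

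The genes that induced HNF4A moves in H1651 were followed in these libraries, which the doxycycline experiment did not use. With doxycycline 104 genes (0.599% of 17351 tested) had been called at least 2-fold higher and 23 (0.133%) at least 2-fold lower. Of the 104, 79 were tested with trametinib: 11 were called higher and 13 lower, with a median of 0.04. All 23 of the others were tested: 7 were called higher and 7 lower, with a median of 0.12. Over all genes tested with trametinib, 4.9% were called higher and 5.39% lower, so in both sets the shares called in each direction were above those of all genes. Neither set moved mainly in 1 direction.

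Rises and falls were ranked among called protein-coding genes with at least 10 CPM and the same direction in both replicate numbers. This leaves out genes of lower level, such as ALB (1.92) and SPRY4 (-2.51). In that ranking the largest rises with trametinib were smaller than the largest falls. SELENOP, a secreted selenium carrier, rose from 14.9 and 3.77 CPM to 35.5 and 16.3 CPM, 2.89-fold (SE 0.105, adjusted p = 1.71e-15, edgeR). HHLA2, a B7-family immune ligand, went from 26.0 and 7.56 CPM to 62.5 and 23.7 CPM. PDE5A, which breaks down cGMP, went from 33.7 and 21.8 CPM to 62.7 and 54.1 CPM. The 12 largest rises also held the actins ACTA2 (1.26) and ACTC1 (1.06), the sarcomere protein TTN (0.97), the small heat shock protein CRYAB (0.90) and PGM5 (0.87). ACTA2 went from 7.3 and 21.2 CPM to 18.2 and 49.2 CPM, and ACTC1 from 14.8 and 66.8 CPM to 29.5 and 144 CPM. Actin genes are near-identical in sequence, so reads could have been split between them by the counting. The others were GAS2 (0.98), AARD (0.92), the endothelin receptor EDNRA (0.88) and RNF150 (0.87). All 12 held.

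Beside ERK targets and IL6, the 12 largest falls of the same ranking held UBASH3B, a phosphatase of receptor-linked kinases. UBASH3B went from 13.7 and 16.6 CPM to 4.89 and 4.26 CPM. TFPI2, a protease inhibitor of the matrix, went from 34.3 and 66.4 CPM to 13.6 and 16.6 CPM. PCSK1, a prohormone convertase, fell by 1.68, and B3GALT5, a galactosyltransferase, fell by 1.35. Of 28 genes of glycolysis and hypoxia, 8 were called lower and 1 higher, against 5.39% and 4.9% of all genes. The lactate exporter SLC16A3 (-0.60), ANKRD37 (-0.65) and PKM (-0.27) fell and held. SLC7A11, the cystine importer, fell by 0.66 and held, the 1 gene called lower among 20 targets of ATF4, where 3 were called higher. SC5D, an enzyme of cholesterol synthesis, rose by 0.35 and held, 1 of 5 called higher among 24 genes of that pathway. MX1 (0.40) was the 1 called gene of 25 interferon-stimulated genes, against 10.3% of all genes called. Counts this small do not set the ATF4 or interferon list apart from all genes.

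**Figure D4:**
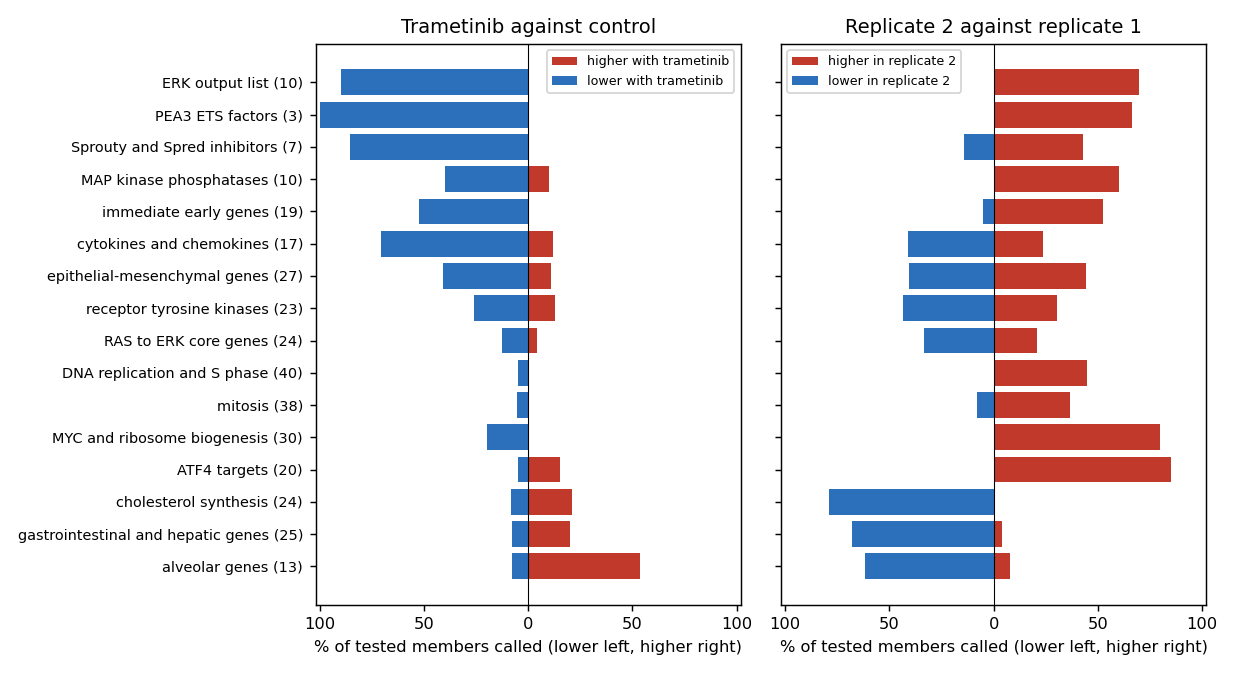
Share of the tested members of 16 gene lists (number tested in brackets) called lower (blue, to the left) or higher (red, to the right), for trametinib against control in the left panel and for replicate 2 against replicate 1 in the right panel. The lists of ERK targets lean left in the left panel, while ATF4 targets, ribosome biogenesis and cholesterol synthesis have longer bars in the right panel.

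Replicates 1 and 2 differed in many gene groups, including lists that were also called with trametinib. Of the 5977 genes called between them, 2917 were higher in replicate 2 (16% of all genes tested) and 3060 lower (16.7% of all genes tested), and 1143 were also called for treatment. ACTC1 (2.24 on the log2 scale) and the keratin KRT81 (1.92) were among the largest excesses of replicate 2. KRT81 stood at 162 and 634 CPM in control and 107 and 395 CPM with trametinib, and shares sequence with other hair keratins. DMBT1, an epithelial scavenger protein, was among the largest deficits, at 36.1 and 7.28 CPM in control and 17.6 and 2.78 CPM with trametinib. The L1 adhesion molecule L1CAM stood at 9.13 and 36.1 CPM in control and 11.95 and 41.7 CPM with trametinib.

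Replicate 2 had lower levels of 17 of 25 gastrointestinal and hepatic genes (1 higher), 8 of 13 alveolar genes (1 higher), 8 of 10 epithelial markers (1 higher) and 19 of 24 genes of cholesterol synthesis (none higher). It had higher levels of 24 of 30 genes of MYC and ribosome biogenesis, 17 of 20 ATF4 targets and 18 of 40 S phase genes, with none lower in any of these 3 lists. Fibroblast markers were higher in replicate 2 for 6 of 9 tested and lower for none, with a median of 0.71. On the ERK output list 7 of 10 genes were higher in replicate 2 and none lower, with a median of 0.64. The genes on which replicate 2 stood apart thus include the lineage and ERK lists on which treatment was read. These counts describe the libraries and do not support the choice of the block. What set the replicates apart was not tested.

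The same dose and time of trametinib in H358 gave a larger response. In 1 fit of the 8 libraries, 8472 of 21188 genes (40%) had a change that differed between the lines, 4150 (19.6%) more positive in H1651 and 4322 (20.4%) more negative. In that fit 626 genes (2.95%) were called in H1651 and 12073 (57%) in H358, and the median absolute log2 change was 0.12 against 0.51. The lines share no library, but they differ in medium and their libraries lie in separate tables. Of the 432 genes called in both lines, 309 moved the same way, and 123 moved in opposite ways with a called difference. Across genes the changes correlated at 0.140, which is a description over genes of the same 8 libraries.

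Cell cycle genes fell in H358 and stayed near control in H1651. All 40 S phase genes and all 38 mitosis genes fell in H358, and for each of them the difference between the lines was called, with H1651 more positive. In H358 the S phase genes lay between -2.50 and -0.30 (median -1.58) and the mitosis genes between -3.01 and -1.89 (median -2.67), while in H1651 the medians in the same fit were -0.003 and -0.01. Of 28 glycolysis and hypoxia genes 26 fell in H358 (median -1.30 against -0.03 in H1651), and the difference was called for 25.

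ERK output genes fell in both lines, and most fell less in H1651. The median of the list was -1.55 in H1651 and -3.26 in H358. DUSP6 stood at 151 and 168 CPM in H358 controls and at 0.638 and 1.16 CPM with trametinib, a log2 change of -7.55, which differs from H1651 by 4.55 (SE 0.215, adjusted p = 2.17e-08, edgeR). ETV4 differed by 4.88, ETV5 by 3.91, SPRY4 by 3.19, PHLDA1 by 2.43 and DUSP4 by 0.84, with the fall smaller in H1651 each time. ETV1, called lower but not held in H1651, fell by 6.90 in H358 and differed by 6.45 (SE 0.261). For CCND1 (-0.08, SE 0.123), SPRY2 (0.06, SE 0.118) and EPHA2 (0.17, SE 0.092) the difference did not pass the test. EGR1 was the reverse: it fell by 5.42 in H1651 and by 4.15 in H358, from 39.1 and 31.8 CPM to 2.49 and 1.43 CPM, and the difference of -1.27 was called (SE 0.249, adjusted p = 0.00131, edgeR). EPHA4, not called in H1651, rose by 1.51 in H358 (difference -1.27).

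**Figure D5:**
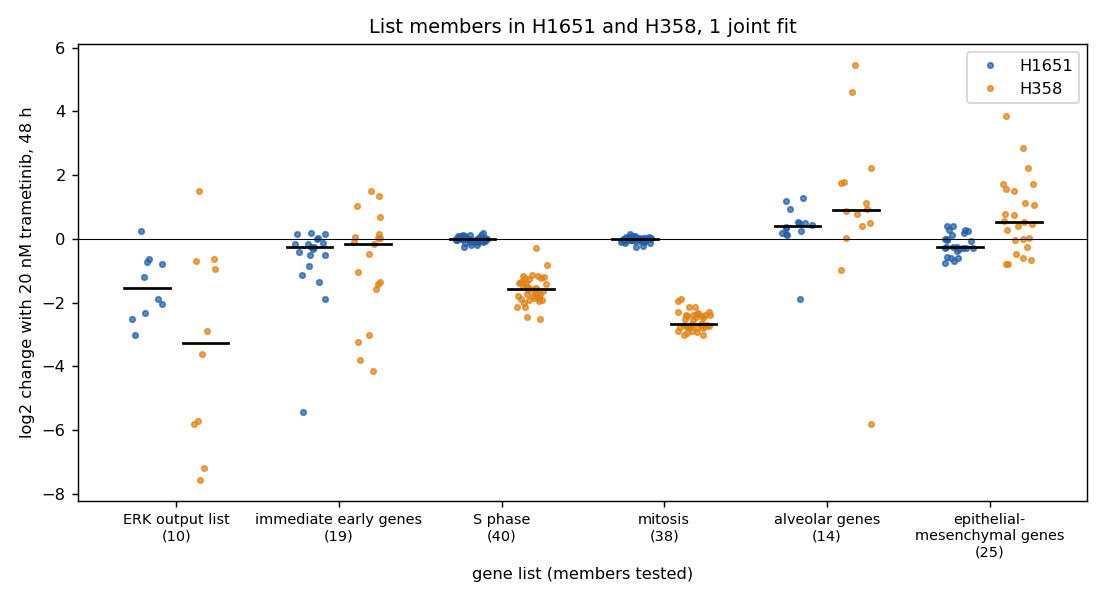
Log2 change with 20 nM trametinib for 48 hours of the members of 6 gene lists in H1651 (blue) and H358 (orange) from 1 joint fit, with a black line at each median and only genes above 3 counts in some library of every group. S phase and mitosis genes lie near 0 in H1651 and below 0 in H358, with medians of -1.58 and -2.67.

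Other genes differed between the lines in size or in direction. GRHL3, an epithelial differentiation factor, had the most negative difference among called genes that reached 10 CPM in a group (-6.72, SE 0.5), but in H1651 it stayed under 1 CPM. TMPRSS2, an epithelial protease, rose in both lines, from 11.1 and 4.27 CPM to 19.1 and 8.25 CPM in H1651 and from 1.58 and 1.82 CPM to 220 and 244 CPM in H358 (difference -6.25). IGFBP5 (difference -5.99) and the placental alkaline phosphatase ALPP (difference -5.69) rose in H358, and neither was called in H1651 in the joint fit. ID2, an inhibitor of helix-loop-helix factors, changed by -0.31 in H1651 and 2.75 in H358, and the retinoid-induced receptor GPRC5A by -0.52 and 2.48. TFPI2 fell in H1651 (-1.68) and rose in H358 (1.10). EDNRA rose in H1651 (0.88) and fell in H358 (-2.78), as did ACTA2 (1.26 and -0.60) and the Notch ligand DNER (0.50 and -2.39). For ACTA2 the H358 levels were low, at 1.435 and 1.164 CPM in control and 0.935 and 0.788 CPM with trametinib. The growth factor carrier FGFBP1 fell in both, by 0.88 in H1651 and 5.56 in H358 (difference 4.67), and SELENOP rose in both, by 1.56 and 3.08 (difference -1.52).

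NKX2-1 rose in both lines, by 0.38 in H1651 (adjusted p = 0.0267, edgeR joint fit) and 0.50 in H358, and the difference of -0.12 (SE 0.112, adjusted p = 0.443) did not pass the test. H358 had 0 HNF4A counts in all 4 libraries, which allows at most 0.0638 to 0.113 CPM per library from counting error, so no change of HNF4A can be read there. In H1651 the HNF4A counts were 2651 and 1226 in control and 2170 and 1188 with trametinib.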

How the data were processed

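RNA was isolated with Trizol and columns, poly(A)-selected, and sequenced as strand-specific paired-end libraries, per the labels' protocols. The authors deposited raw read counts per Ensembl gene, with a symbol for each, and no normalization; STAR 2.7.6a, featureCounts 1.6.3, cutadapt 3.5 and hg38 are named in the submitters' processing notes. Counts were analysed in R 4.3.3 with edgeR 4.0.16: filterByExpr, TMM factors, quasi-likelihood F-tests of ~ replicate + treatment, Benjamini-Hochberg adjustment, threshold 0.05. SE is the log2 change divided by the root of F. Values within a replicate number are log2 CPM differences with a prior count of 2. Per library, 3 counts are 0.066 to 0.0934 CPM; such limits cover counting error only. Simulated counts of the H1651 comparison (18032 genes tested) were drawn with the dispersions of the same fit. They therefore cannot test whether that spread is right, and genes near the count floor were not among those changed. In them 64% of 50 genes changed 1.3-fold, 84% of 50 changed 1.5-fold and all changed 2-fold were called. Of the calls, 4.4% were unchanged genes. For the difference between the lines, simulated likewise, 59% of 100 genes changed 1.5-fold and 81% of 100 changed 2-fold were called. Of those calls 7.28% were unchanged genes. As a check for libraries deposited more than once, replicates were compared with counting noise (chi-square per degree of freedom 25.0 and 27.9), and each was counted as its own sample.

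The replicate block was set by the choice of comparison, not by a stated pairing. Gene lists and members were chosen with earlier results of these data known. Named are HNF4A, NKX2-1, the ERK output list, up to 4 called members of each other list with the largest change, the 12 largest rises and falls with at least 10 CPM and the same direction in both replicate numbers, the 5 largest replicate differences and 6 largest line differences each way; others, including opposite movers, were chosen after their values were seen. Alternatives were DESeq2 1.42.0, limma-voom (limma 3.58.1), other scaling and filters, no block, and left-out libraries. The 4 mouse tables were not used here.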

Additional observations from a re-analysis of the deposited data

Results flagged for a closer look

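The change with trametinib differed between H1651 and H358 for 8472 genes by a test of the difference itself, the contrast of the treatment effects in edgeR's joint fit with the replicate number within each line as a block. Given as the log2 change in H1651 minus that in H358, the difference was positive for ETV1 (6.45), ETV4 (4.88), FGFBP1 (4.67), DUSP6 (4.55), ETV5 (3.91), EDNRA (3.66), SPRY4 (3.19), DNER (2.89), PHLDA1 (2.43), ACTA2 (1.86) and DUSP4 (0.84). It was negative for GRHL3 (-6.72), TMPRSS2 (-6.25), IGFBP5 (-5.99), ALPP (-5.69), ID2 (-3.06), GPRC5A (-3.00), TFPI2 (-2.77), SELENOP (-1.52), EGR1 (-1.27) and EPHA4 (-1.27). Each group had 2 libraries, so no group could be searched for a library far from the others.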

How the results depend on the processing

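Without the replicate block 0 genes were called higher and 0 lower, against 895 and 986, and 0 of the 10 ERK output genes were called lower, against 9. Leaving out 1 library as well gave 0 to 89 genes higher, 0 to 104 lower and 0 to 8 ERK output genes, with the highest counts without control replicate 1. These fits leave 1 library in an arm, which is assumed to vary like the other group, and they compare libraries of unequal replicate number, so they do not weigh the block. Of the named genes, 22 reversed in some fit of that kind, with log2 changes from -0.47 to 2.56 for ACTC1, -1.30 to 0.0505 for ANKRD37, -0.0346 to 1.09 for APOH, -0.86 to 0.0669 for AXL, -0.0466 to 0.93 for CDH1, -0.60 to 0.0237 for CLDN4, -2.42 to 0.81 for CXCL5, -2.97 to 0.49 for DMBT1, -0.23 to 0.69 for FOXA1, -0.53 to 0.29 for HNF4A, -0.19 to 2.35 for HOPX, -0.32 to 2.22 for KIT, -1.66 to 0.52 for KRT7, -1.89 to 0.64 for KRT81, -0.28 to 1.22 for KSR2, -0.92 to 1.56 for L1CAM, -0.61 to 0.10 for MUC1, -0.50 to 0.015 for NF1, -0.10 to 0.99 for NKX2-1, -0.68 to 1.98 for TF, -0.69 to 2.72 for TTN and -0.35 to 0.0062 for UHRF1. Within replicate 1 alone HNF4A was at 0.0146. DESeq2 with the block called 195 higher and 265 lower, the joint fit with H358 281 and 345, and 74 and 95 of the calls were at least 2-fold. Between replicate numbers DESeq2 called 2177 genes against 5977. Between the lines 4087 genes differed without the replicate block against 8472, and 2639 to 3480 with 1 H1651 library also left out. Other scaling, other count filters and limma-voom kept the counts of calls within 1.5 times. Upper-quartile factors turned the balance, with 1185 genes higher and 924 lower (56.2% of calls higher). The cause of these shifts was not tested. With 2 libraries per group, a fit without replicate 1 or 2 leaves no residual degrees of freedom, so those are values with no test.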
